A study of Mus musculus with 18 samples.

Results

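The 10 genes described here encode surface proteins of developing T cells: the coreceptor genes Cd4, Cd8a and Cd8b1, the adhesion gene Cd2, the signal modulators Cd5 and Cd6, the stage markers Cd24a and Cd69, the antigen-presenting Cd1d1 and the pan-thymocyte gene Thy1. They were followed in thymocytes of C57BL/6 mice aged 6, 16 and 24 months, 3 mice per age, each labelled with Cy3 and hybridized against Cy5-labelled thymocytes of 1 month C57BL/6 mice on 9 Agilent 2-colour arrays. No treatment or genetic change is given in the labels, and no array had the dyes swapped. The design calls the 1 month material a pool, whereas the sample labels number 9 single mice. It was treated as 1 control sample. Each log2 ratio uses the Cy5 signal of its own array. If the labels hold, the spread among 1 month mice is within every ratio and was not estimated apart. The 10 genes were taken from 18182 genes named on the array, and 8 of them carried their symbol as the gene name of 9 probes. A further 4 probes were matched after the files had been seen, 1 each for Cd8b1 and Cd69 and a second one each for Cd8a and Cd6, giving 13 probes. All 13 passed the filter on dim spots.

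In the thymus, most cells carry both coreceptors, CD4 and CD8, and are called double-positive. CD4 binds class II and CD8, a dimer of the Cd8a and Cd8b1 products, binds class I histocompatibility molecules, and both bring the kinase Lck to the T cell receptor. Cells whose receptor engages these molecules are selected: they induce CD69 and raise CD5, keep 1 coreceptor, and lower CD24 as they mature. The samples are whole thymocyte suspensions, so fewer cells of a type and less RNA per cell cannot be told apart.

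The 10 thymocyte markers examined, Cd4, Cd8a, Cd8b1 and Thy1 among them, had a Cy3 signal well above background on each of the 9 arrays. The share of features that reached this level ran from 79.6% to 94.2% per array in Cy3, and from 90.5% to 95.4% in Cy5. Net Cy3 signal was dimmest on 24 months replicate 2 (median 61.2, against 77.1 to 175 on the other arrays). Saturation affected Cd8b1 in Cy5 on 9 of 9 arrays and the brighter Thy1 probe in Cy5 on 8 of 9. Neither probe is given a fold or a direction against 1 month. The number of arrays limits the precision.

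Against 1 month thymocytes, Cd2 was higher at all 3 ages and Cd8a, by the probe that carries its name, was lower at all 3. Cd24a was higher at 6 and 16 months, and Cd69 was lower at 24 months. With 1 main probe per gene, 5 of the 10 genes passed at 6 months, where 12.4% of all tested probes did, 5 of 10 at 16 months, where 18.0% did, and 5 of 10 at 24 months, where 24.9% did. Of these, Cd8b1 and Thy1 passed at each age through a probe saturated in Cy5, which leaves 3 of 8 genes at each age: 2 higher and 1 lower at 6 and at 16 months, and 1 higher and 2 lower at 24 months. Over all tested probes, 7.61% were higher and 4.76% lower at 6 months, 11.4% and 6.59% at 16 months, and 11.6% and 13.3% at 24 months. The 8 unsaturated genes had a median log2 ratio of 0.02 at 6 months, 0.18 at 16 months and 0.00 at 24 months, beside -0.01, -0.01 and -0.02 over all tested probes. Calls are limma tests at a Benjamini-Hochberg adjusted p under 0.05 over 37449 probes. The 3 comparisons share the 1 month material if it is a pool. Since every older sample was in Cy3, age and dye cannot be told apart in these comparisons.

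The Cd4 probe was dim, with a raw Cy3 signal of 60.8 to 208 after subtraction of the local background. Its log2 ratios to 1 month were 0.72, 0.45 and -0.13 at 6 months, 0.64, 0.53 and 0.17 at 16 months, and 0.20, 0.33 and 0.43 at 24 months. Of the 9 arrays, 8 lay above 1 month, and the 3 ages overlapped. The means of 0.35 ± 0.43 at 6 months, 0.45 ± 0.24 at 16 months and 0.32 ± 0.12 at 24 months (SD, n = 3 each) did not pass (limma adjusted p = 0.163, 0.0814 and 0.158). Their 95% intervals were -0.0020 to 0.70, 0.09 to 0.80 and -0.03 to 0.67. Without 6 months replicate 3, Cd4 passed at 6 months (0.59, adjusted p = 0.0419) and at 16 months (0.45, adjusted p = 0.0289). After normexp background correction and median centring, with no intensity-dependent dye correction, the same probe passed at all 3 ages (0.37, 0.27 and 0.22, adjusted p = 0.016, 0.0369 and 0.0452). That setting called 52.4%, 44.5% and 70.9% of all tested probes at 6, 16 and 24 months, so a call under it sets a gene little apart.

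The Cd8a probe that carries the gene's name read -0.27, -0.34 and -0.48 at 6 months, -0.30, -0.60 and -0.45 at 16 months, and -0.43, -0.55 and -0.36 at 24 months. All 9 arrays lay below 1 month. By this probe alone, the signal was 1.29-fold lower at 6 months (95% interval of the log2 ratio -0.53 to -0.20), 1.37-fold lower at 16 months (-0.61 to -0.29) and 1.36-fold lower at 24 months (-0.61 to -0.28), with limma adjusted p of 0.0205, 0.00694 and 0.00648. The call at 6 months was lost without 6 months replicate 2 (adjusted p = 0.109) or replicate 3 (0.0773), and that at 16 months without 16 months replicate 2 (0.0554).

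A second probe that the array's description assigns to Cd8a read the other way. It was slightly brighter than the named one (mean log2 signal of both channels 15.97 against 15.84). Its log2 ratios were 0.32, 0.24 and 0.12 at 6 months, 0.43, 0.25 and 0.26 at 16 months, and 0.21, 0.15 and 0.22 at 24 months, all above 1 month. The means of 0.23, 0.31 and 0.19 passed with adjusted p of 0.04, 0.0105 and 0.0418. The call at 6 months was lost without any of the arrays but 16 months replicate 1 and 24 months replicate 2, that at 16 months without 16 months replicate 2, and that at 24 months without any 24 months array, 6 months replicate 2 or 16 months replicate 2 or 3. On every array the named probe lay below the second one, by 0.58 to 0.85 on the log2 scale, and by 0.57 to 0.84 after median centring. The gap was present under both normalizations, and the direction for Cd8a depends on which probe is read. After median centring, the named probe stayed lower (-1.08, -1.18 and -1.63), while the second probe turned negative (-0.50, -0.43 and -1.02). Read through the second probe, the count of passing genes would still be 5 at each age, with Cd8a among the higher ones.

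**Figure D1:**
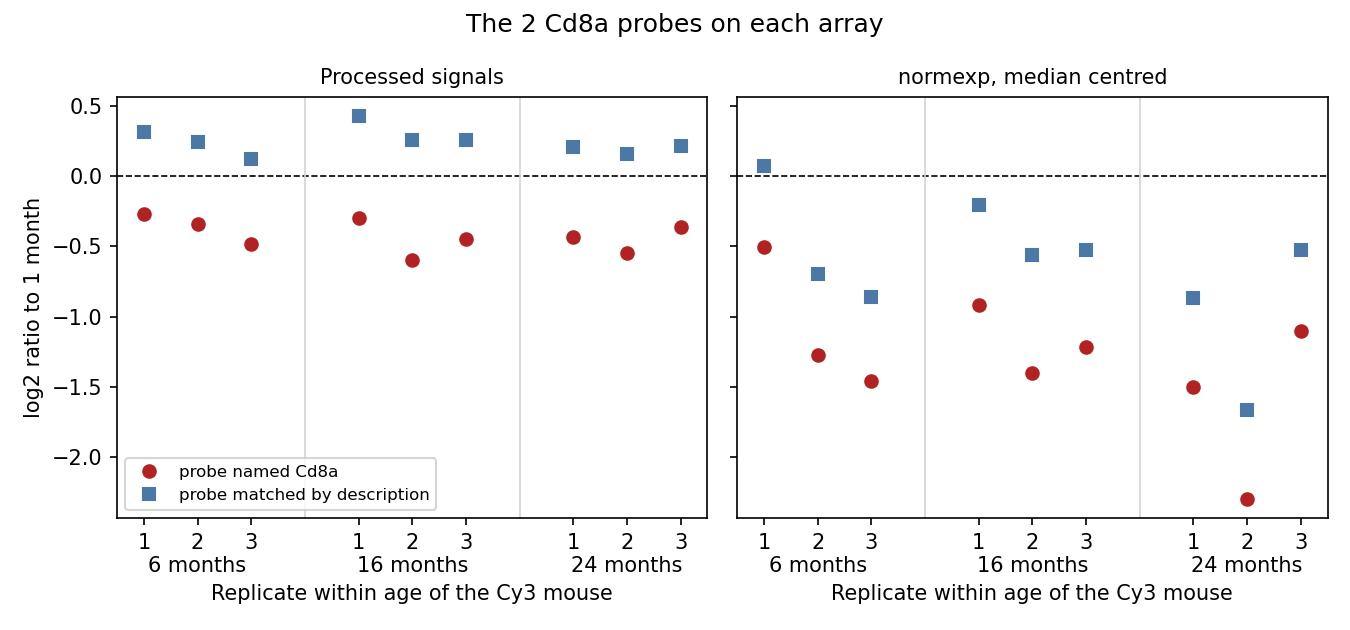
Log2 ratio to 1 month thymocytes of the 2 Cd8a probes on each of the 9 arrays (replicate within age on the x axis), from processed signals on the left and after normexp correction and median centring on the right. The probe named Cd8a (circles) lies below the description-matched probe (squares) on every array in both panels, by 0.58 to 0.85 on the left.

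Cd8b1 encodes the other CD8 chain. Its Cy5 spot was saturated on every array, so it was compared between ages by its processed Cy3 signal alone, where no array was saturated. That signal already carries the authors' LOWESS dye correction, so it is not wholly free of the Cy5 channel. Quantile-normalized log2 Cy3 signals were 18.36, 18.45 and 18.20 at 6 months, 18.88, 18.20 and 18.52 at 16 months, and 18.47, 18.18 and 18.50 at 24 months. The ages overlapped. The difference was 0.05 for 24 against 6 months (95% interval -0.40 to 0.49), 0.20 for 16 against 6 months (-0.24 to 0.64) and -0.15 for 24 against 16 months (-0.59 to 0.29).

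The balance of the coreceptors was examined as the log2 ratio of Cd4 minus that of the named Cd8a probe on the same array. It averaged 0.71 ± 0.32 at 6 months, 0.89 ± 0.26 at 16 months and 0.77 ± 0.13 at 24 months (SD, n = 3 each). Exact two-sided permutation tests gave p = 0.9 for 24 against 6 months, 0.6 for 16 against 6 months and 0.5 for 24 against 16 months, where 0.1 is the smallest p that 3 arrays against 3 allow. Adjusted by Benjamini-Hochberg over the 9 exact permutation tests of this kind, every p was 0.9. Of these, the Cd8b1 minus Cd8a tests rest on the saturated Cy5 spot, and nothing is read from them. Through the second Cd8a probe, Cd4 minus Cd8a averaged 0.13 ± 0.34 at 6 months, 0.13 ± 0.19 at 16 months and 0.13 ± 0.12 at 24 months (SD, n = 3 each), and p was 1.0 in each of the 3 exact permutation tests. After median centring, Cd4 minus the named Cd8a probe read 1.00, 1.65 and 1.69 at 6 months. It read 1.33, 1.70 and 1.29 at 16 months, and 1.64, 2.57 and 1.35 at 24 months. The size of the balance against 1 month therefore rests on the choice of Cd8a probe and on the normalization. The mean log2 signal of both channels was 9.35 for Cd4 and 15.84 for the named Cd8a probe, and the part of this gap was not tested.

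Cd2, an adhesion molecule that binds CD48 in mice, had the largest change among the unsaturated genes. Its log2 ratios were 0.60, 0.77 and 0.49 at 6 months, 0.86, 0.58 and 0.84 at 16 months, and 0.88, 0.38 and 0.81 at 24 months. All 9 arrays lay above 1 month, and the ages overlapped. Cd2 was 1.54-fold higher at 6 months (95% interval 1.30 to 1.82), 1.69-fold higher at 16 months (1.43 to 2.00) and 1.62-fold higher at 24 months (1.37 to 1.91), with limma adjusted p of 0.0135, 0.00464 and 0.00564. These ratios stood at percentiles 96.3, 97.0 and 96.0 of all tested probes. After median centring the log2 ratio was 0.14, 0.28 and -0.02, none of which passed (adjusted p = 0.519, 0.214 and 0.914). The call at 6 months was also lost without 6 months replicate 1 (adjusted p = 0.0533) or replicate 2 (0.0999).

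Cd5 and Cd6 encode related scavenger receptor proteins that modulate T cell receptor signals, Cd5 as a brake. Cd5 read -0.05, 0.00 and -0.02 at 6 months, 0.63, -0.19 and 0.13 at 16 months, and 0.14, -0.40 and 0.05 at 24 months. One array was high (16 months replicate 1) and 1 was low (24 months replicate 2), and the ages overlapped. Neither gene passed at any age. Means for Cd5 were -0.02, 0.19 and -0.07, with 95% intervals between -0.42 and 0.54, and means for the main Cd6 probe were 0.06, 0.16 and 0.08, with intervals between -0.13 and 0.36. The second Cd6 probe stayed within -0.06 and 0.10 on all 9 arrays.

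Cd24a encodes the heat-stable antigen, abundant on immature thymocytes. Its log2 ratios were 0.21, 0.25 and 0.36 at 6 months, 0.16, 0.19 and 0.37 at 16 months, and 0.20, 0.04 and 0.19 at 24 months. All 9 arrays lay above 1 month, and 24 months replicate 2 was the nearest to it. Cd24a was 1.21-fold higher at 6 months and 1.18-fold higher at 16 months (limma adjusted p = 0.0286 and 0.0313), and 0.14 higher on the log2 scale at 24 months without passing (adjusted p = 0.12). Median centring turned these to -0.36, -0.36 and -0.86, and the last of them then passed as lower (adjusted p = 0.00336), as 70.9% of all tested probes passed in either direction. The call at 6 months was lost without any 1 of the 3 arrays of that age, and the call at 16 months without any 1 of the arrays of that age or without 6 months replicate 2.

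Cd69, an early activation marker that double-positive cells show after a selecting signal, was below 1 month on all 9 arrays. It read -0.27, -0.28 and -0.09 at 6 months, -0.31, -0.76 and -0.24 at 16 months, and -0.28, -0.91 and -0.25 at 24 months. Replicate 2 of 16 months and replicate 2 of 24 months were far lower than the rest. The means of -0.21, -0.43 and -0.48 had limma adjusted p of 0.352, 0.0739 and 0.046, so that Cd69 passed at 24 months, 1.39-fold lower (95% interval of the log2 ratio -0.81 to -0.14). Without 24 months replicate 2 the mean at 24 months was -0.26 (adjusted p = 0.198), and the call was also lost without any other array but 16 months replicate 2. Without 24 months replicate 2, Cd69 passed at 16 months instead (adjusted p = 0.0271). After median centring Cd69 was lower at all 3 ages (-0.66, -0.84 and -1.08), each with an adjusted p under the threshold (0.0225, 0.0175 and 0.00237), where 52.4%, 44.5% and 70.9% of all tested probes passed.

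Set against Cd24a on the same array, Cd69 was lower on all 9 arrays: the difference averaged -0.48 ± 0.04 at 6 months, -0.68 ± 0.25 at 16 months and -0.62 ± 0.28 at 24 months (SD, n = 3 each). Exact two-sided permutation tests found p = 0.9 for 24 against 6 months, 0.3 for 16 against 6 months and 0.6 for 24 against 16 months.

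Cd1d1 encodes the class I-like molecule by which double-positive thymocytes present lipids to natural killer T cells. It read -0.16, -0.07 and 0.01 at 6 months, 0.62, -0.21 and -0.14 at 16 months, and -0.06, -0.56 and 0.16 at 24 months. It did not pass at any age, and 16 months replicate 1 and 24 months replicate 2 were again its extremes. Thy1 encodes a glycolipid-anchored protein carried by mouse thymocytes. Its unsaturated probe lay above 1 month on all 9 arrays, between 0.07 and 0.31, and passed at 6 months (0.24, adjusted p = 0.032) but not at 16 months (0.17, 0.067) or 24 months (0.16, 0.0716). The call at 6 months was lost without any 1 of the 6 months arrays or without 16 months replicate 3, and without 24 months replicate 3 the probe passed at 16 months (adjusted p = 0.0385). After median centring that probe averaged -0.37, -0.40 and -0.79.

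**Figure D2:**
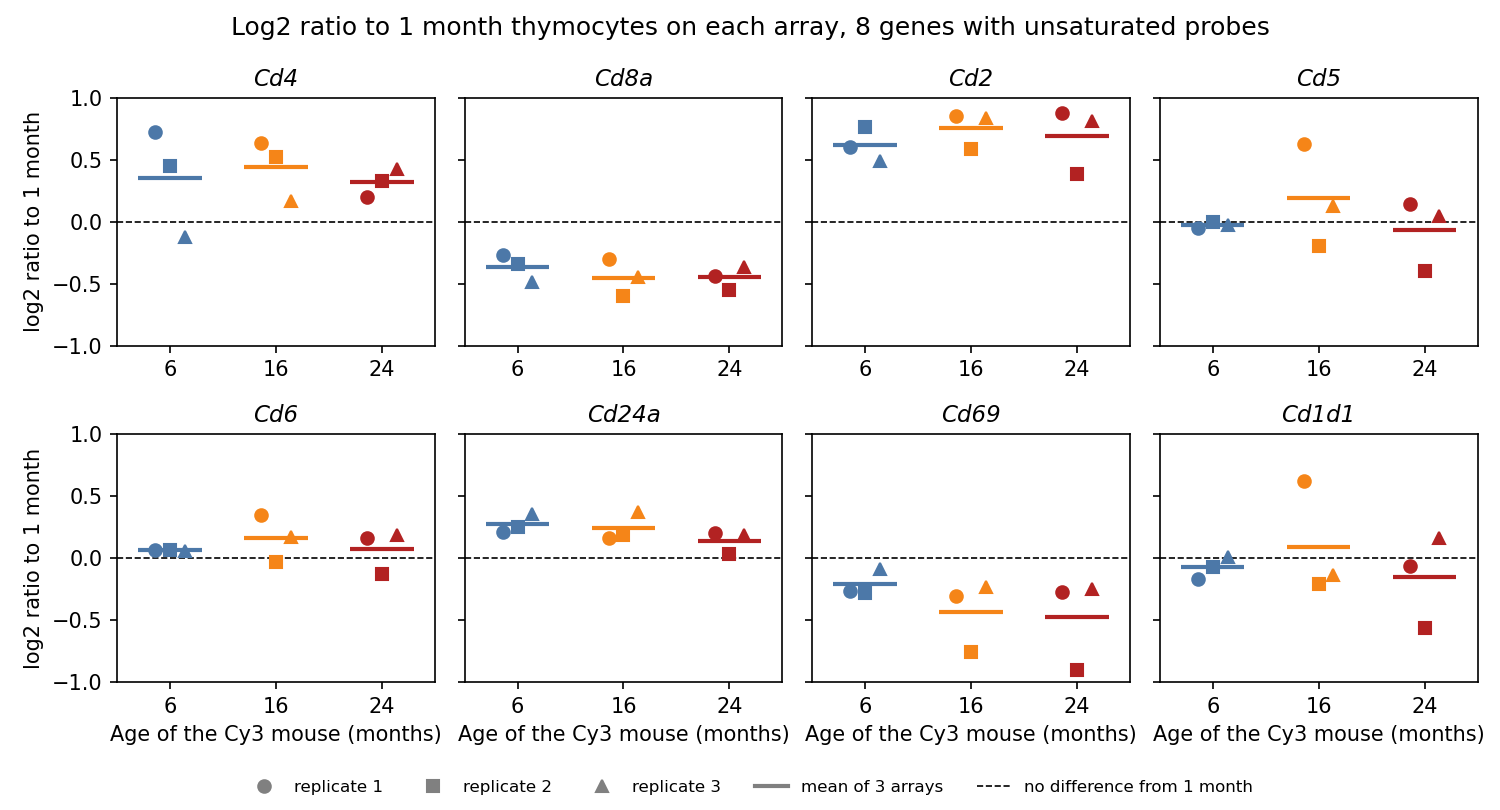
Log2 ratio to 1 month thymocytes on each array for the 8 genes whose main probe was not saturated, by age of the Cy3 mouse in months. Symbols mark replicates, bars the mean of 3 arrays and the dashed line equality with 1 month. Cd2 and Cd24a lie above the line and Cd69 and the named Cd8a probe below it on all 9 arrays. The second Cd8a probe, not drawn, lay above it. The lowest array for Cd2, Cd5, Cd6, Cd24a, Cd69 and Cd1d1 is 24 months replicate 2.

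Over the 11 unsaturated probes, 24 months replicate 2 was the lowest array for 6 and 16 months replicate 1 the highest for 4. The first of these had the dimmest Cy3 channel, and the second had the highest mean haemoglobin log2 ratio (1.94). Haemoglobin log2 ratios ran between -1.91 and -1.18 at 6 months, -0.66 and 1.94 at 16 months, and -1.81 and 1.43 at 24 months. With haemoglobin as a covariate, 0 of 10 genes passed at 6 months (limma), 5 at 16 months and 4 at 24 months, where 0.224%, 12.1% and 23.2% of all tested probes did. The loss at 6 months was thus one of nearly all calls on the arrays. The covariate was not centred, so this fit reads each age at a haemoglobin log2 ratio of 0. That point lies outside the range of the 6 months arrays and within those of 16 and 24 months. The part of red cells and of signal strength in these results was not tested.

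The normalization moved bright probes as a whole. After median centring without loess, the 3745 brightest probes had a median log2 ratio of -0.57 at 6 months, -0.55 at 16 months and -0.90 at 24 months, against 0.01, 0.00 and 0.01 from processed signals. Relative to that median, Cd2 stood 0.71, 0.83 and 0.88 higher, Cd24a 0.22, 0.19 and 0.04 higher, and Cd69 0.09, 0.29 and 0.18 lower. The named Cd8a probe stood 0.50, 0.62 and 0.73 lower, and the second Cd8a probe 0.08 and 0.12 higher at 6 and 16 months and 0.12 lower at 24 months. That median is 1 value for genes of unlike brightness. The mean log2 signal of both channels was 11.93 for Cd2, 12.09 for Cd69, 14.19 for Cd24a, and 15.84 and 15.97 for the Cd8a probes. The distances therefore do not correct for a shift that varies with brightness.

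**Figure D3:**
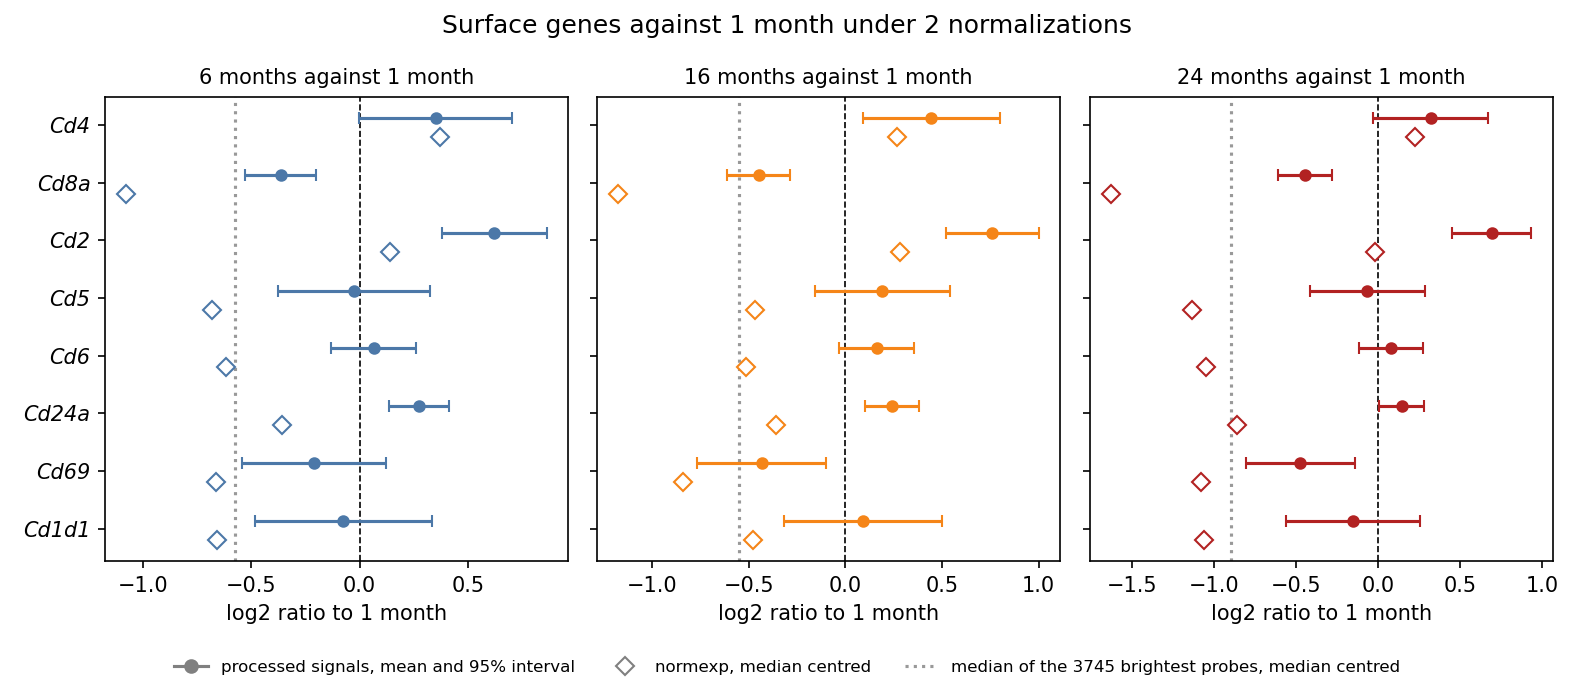
Log2 ratio to 1 month of 8 genes at each age from processed signals (filled circles with 95% intervals from limma, n = 3 arrays) and after normexp correction and median centring (open diamonds). The dotted line is the median of the 3745 brightest probes under median centring, at -0.57, -0.55 and -0.90. Most diamonds lie left of their circles. Cd69 and the named Cd8a probe are below 0 under both, and the dotted line is below 0 too.

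Between the older ages, none of the 10 genes passed the test. Limma called 0 of 37449 probes (0.0%) at 24 against 6 months, at 16 against 6 months and at 24 against 16 months, and a limma F test over the 3 ages called 0. At an unadjusted p under 0.05 there were 3412 probes (9.11%), 2388 (6.38%) and 1786 (4.77%), and 0 of the 10 genes in each comparison. The 95% intervals of the 8 unsaturated genes lay between -0.74 and 0.50 for 24 against 6 months, between -0.69 and 0.74 for 16 against 6 months, and between -0.82 and 0.43 for 24 against 16 months. A change of 1 on the log2 scale lies outside all of them.

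The largest difference at 24 against 6 months among the 8 was that of Cd69 (-0.26, 95% interval -0.74 to 0.21). Cd24a was 0.13 lower at 24 than at 6 months (-0.33 to 0.07), and its 3 arrays did not overlap. It was the 1 gene of 8 without overlap there, where 15.9% of all probes had none. At 16 against 6 months the largest was Cd69 again (-0.22, -0.69 to 0.25), and at 24 against 16 months Cd5 (-0.26, -0.75 to 0.24). Among the signed means, the 3 ages stood in different orders for different genes, and no neighbours in those orders differed beyond their spread. For the brighter Thy1 probe in Cy3 alone, the differences were 0.18 for 24 against 6 months, 0.23 for 16 against 6 months and -0.05 for 24 against 16 months, with intervals between -0.37 and 0.54.

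**Figure D4:**
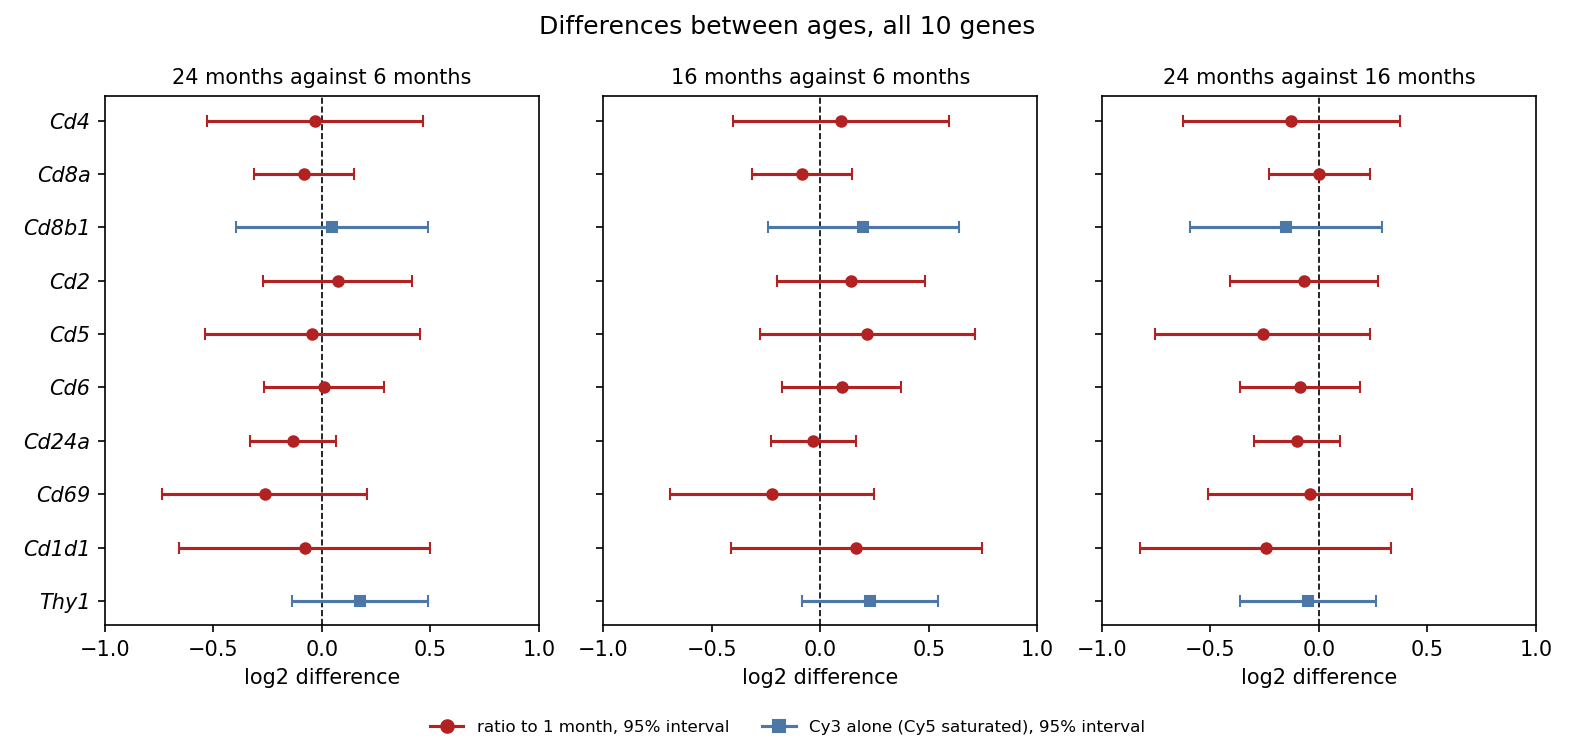
Log2 differences between ages with 95% intervals for all 10 genes. Circles are from log2 ratios to 1 month (limma, 3 arrays per age). Squares, for Cd8b1 and Thy1, are from dye-corrected, processed Cy3 signals alone. Every interval includes 0, and all lie between -0.82 and 0.74.

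The genes that work with the coreceptors were described by lists. Over all tested probes, 7.61% rose and 4.76% fell at 6 months against 1 month. The shares were 11.4% and 6.59% at 16 months, and 11.6% and 13.3% at 24 months. Of 13 tested genes around the T cell receptor, 4 rose and 0 fell at 6 months against 1 month, 4 and 0 at 16 months, and 5 and 0 at 24 months. The receptor chain gene Cd3g was 0.39, 0.52 and 0.42 higher (adjusted p = 0.0392, 0.0111 and 0.0198), and the costimulatory receptor gene Cd28 was 0.40, 0.46 and 0.35 higher (0.0237, 0.0108 and 0.0216). The list median was 0.15, 0.13 and 0.17 at the 3 ages, and -0.30, -0.42 and -0.71 after median centring, where Cd3g was negative too (-0.28, -0.14 and -0.67) and Cd28 was -0.02, 0.02 and -0.24.

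Among 12 kinase genes and regulators close to the coreceptors, 0 passed at 6 months (limma, against 12.4% of all probes), 3 rose and 1 fell at 16 months, and 1 rose and 2 fell at 24 months. Lck, the kinase that binds the coreceptor tails, rose at 16 and 24 months (0.39 and 0.33, adjusted p = 0.0216 and 0.0307), but was -0.32 and -0.82 after median centring. The adaptor gene Sh2d1a fell at the same ages (-0.28 and -0.41, adjusted p = 0.0469 and 0.012), and Themis, needed for positive selection in mice, fell at 24 months (-0.20, adjusted p = 0.0442). Both were negative after median centring too, Sh2d1a at -0.95 and -1.52 and Themis at -1.01. So was the list median (-0.26 at 16 months and -0.67 at 24 months), so the sign alone sets them little apart. The values of both genes lay below that median.

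Of 19 transcription regulators of the coreceptors and of T cell development, 5 rose and 1 fell at 6 months, 6 and 1 at 16 months, and 7 and 1 at 24 months. Myb was 0.83, 0.52 and 0.80 higher (adjusted p = 0.00849, 0.0239 and 0.0055) and the T lineage factor gene Tcf7 0.40, 0.36 and 0.43 higher (0.0119, 0.0111 and 0.00559). Satb1, a chromatin organizer, was 0.37 higher at 6 months and 0.43 higher at 24 months. Median centring made Tcf7 and Satb1 negative at each of the ages given, and Myb at 16 and 24 months.

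Of 14 double-positive genes, 3 rose and 0 fell at 6 months, 3 and 0 at 16 months, and 3 and 1 at 24 months. Ly6d was 0.64, 0.54 and 0.44 higher, and was negative at all 3 ages after median centring. Of 14 genes of mature single-positive cells, 0 passed at 6 months (limma), 5 rose at 16 months and 4 at 24 months. Among them S100a6, a calcium-binding protein gene, rose most (1.48 and 1.42), and H2-Q7, a class I-like gene, was 1.10 and 0.92 higher. S100a6 stayed positive after median centring (0.95 and 0.68), while H2-Q7 did at 16 months but not at 24 months (0.49 and -0.06).

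Among 13 ligands and partners, 2 rose at 6 months, 4 at 16 months and 5 at 24 months, and 0 fell. The class I gene H2-D1, whose product CD8 binds, was 1.29 higher at 16 months and 1.05 higher at 24 months (adjusted p = 0.00556 and 0.00958). The class II gene H2-Eb1 was 1.18 and 1.25 higher (0.0225 and 0.016). Both stayed positive after median centring (0.72 and 0.13 for H2-D1, 0.69 and 0.61 for H2-Eb1). Psap, which encodes the saposins that load lipids on CD1d, was higher at all 3 ages (1.08, 1.47 and 1.40). None of the genes of these 6 lists was called between ages.

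Markers of several other cell types passed at the same ages. Of all tested probes, 7.61% rose and 4.76% fell at 6 months, 11.4% and 6.59% at 16 months, and 11.6% and 13.3% at 24 months. Of 10 thymic epithelium markers, 5 fell at 6 months, 4 at 16 months and 3 at 24 months, and the log2 ratio of their summed signals ran from -0.87 to -0.72, from -0.85 to -0.66 and from -0.61 to -0.18. Of 8 macrophage and dendritic cell markers, 0 passed at 6 months, 2 rose at 16 months and 2 at 24 months, with summed log2 ratios of -0.39 to -0.17, 0.42 to 1.32 and 0.07 to 1.21. Of 8 granulocyte markers, 0 passed at 6 or 16 months and 4 fell at 24 months. Their summed log2 ratios ran from -1.94 to -1.53, from -2.34 to 1.94 and from -2.74 to -1.64, and 16 months replicate 2 stood apart at 1.94. Of 5 plasma cell markers, 1 rose at 6 months, 4 at 16 months and 1 at 24 months, with summed log2 ratios of 0.15 to 0.46, 1.06 to 2.10 and 1.16 to 2.04. Of 9 markers of natural killer and innate-like T cells, 0 passed at 6 months, 4 rose at 16 months and 4 at 24 months, with summed log2 ratios of -0.04 to 0.13, 0.19 to 0.71 and 0.09 to 0.38. Of 9 fibroblast and endothelium markers, 2 rose at 16 months and 2 at 24 months, of 9 B cell markers 1 rose at 16 months, and none of the 6 erythroid markers passed against 1 month. Counts of 1 or 2 in lists this short lie near the shares of all tested probes, and nothing is read from them. Every tested marker was well above background in Cy3 on at least 1 array. Just 3 of the 8 granulocyte markers were so on all 9 arrays, so the others came near background on some. The part of these cell types in the values of the 10 genes and of the mature single-positive list was not tested.

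By Pearson correlation of the 9 log2 ratios, among 17095 genes, the closest to Cd4 were Rtf2 (0.95), Pqbp1 (0.94) and Mrpl9 (0.93). The closest to Cd8a were Aktip (0.95), Cd70 (0.93) and Btg2 (0.92), and the closest to Cd69 were Stk17b (0.97), Trp53inp2 (0.96) and Egr1 (0.96). These describe likeness over 9 arrays that share the dyes and, if it is a pool, the 1 month material. The genes also share the signal strength of each array.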

How the data were processed

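RNA of isolated thymocytes was measured on 9 arrays, each with an older mouse in Cy3 and 1 month material in Cy5. Both samples of an array carried the same scanner file. The deposited intensity values include processed signals, made by the authors with background subtraction and a LOWESS dye correction (smooth factor 0.25 and SpotFinder 7.5.1 per the file headers, Feature Extraction 7.1 per the submitters' processing notes). The authors' value table gives each channel a score, and this was checked to equal its log10 processed signal as a z-score. Raw reads do not exist for arrays, so the depth is that of signal over background. The log2 ratio of Cy3 to Cy5 was averaged over spots of a probe, spots marked as outliers were left out, and 37449 of 41174 probes were tested, those with a Cy3 signal well above background throughout at least 1 age, or a Cy5 signal so on all 9 arrays.

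Genes were named through RefSeq accessions, gene names, synonyms and clone names, and 1 probe by its description. Limma 3.58.1 in R 4.3.3 fitted a mean per age to all 9 arrays (prior degrees of freedom 1.94, residual 6). Probes passed at a two-sided Benjamini-Hochberg adjusted p under 0.05. Intervals are 95% from the same fit. Differences within an array were tested by exact permutation in Python 3.11.15 with scipy 1.17.1. The main probe of a gene was the brightest one that carries its symbol, or the matched probe where none did. In the lists, up to 4 genes per list and comparison past the threshold could be named, those with the largest change, and fewer are printed. A gene of the double-positive list is not reported here. The genes and lists were chosen with earlier results of these data known.

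In simulated data of 36916 probes, 100 were changed by 0.5 and 100 by 1 on the log2 scale. Of these, 24.0% and 64.0% were recovered for 24 against 6 months. The noise was normal and drawn independently for each probe and array. In the real data whole arrays stood apart, such as 24 months replicate 2, so these rates do not give the power here. Alternatives were normexp (offset 50) with loess or with median centring, median-centred processed signals, the deposited scores, Cy3 alone, no filter, saturated spots left out, a replicate block, a haemoglobin covariate, only the ages compared, and leaving out each array. Cd8a read by its second probe was added after the data were seen. Same-numbered arrays of different ages did not deviate together (mean correlation -0.03, between -0.31 and 0.10, over 9 pairs), so the numbers were not taken as pairs.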

Additional observations from a re-analysis of the deposited data

Results flagged for a closer look

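The 1 month channel was examined as 9 Cy5 values per probe, and in 4 of 13 probes 1 array stood far from the other 8. Cd24a had a log2 Cy5 signal of 13.48 on the array of 24 months replicate 2, with the nearest other array at 13.93. Both Cd6 probes were low on the same array, the main one at 14.51 against 14.96 on the nearest, and the second one at 10.87 against 11.31. Cd8b1, saturated in Cy5 on all 9 arrays, read 18.24 on the array of 6 months replicate 1, with the nearest at 17.53. Chance sets such a distance in about 1 of 20 groups, and the 3 probes low on 1 array share that array. There the summed Cy5 signal was also the lowest of the 9 arrays for the T cell receptor list (194081, against 263031 or more). The same held for the kinase list (86456, against 115988 or more), so the low values are not particular to Cd24a and Cd6. The raw Cy5 signal of Cd8b1 after background subtraction lay between 65163 and 65186 on all 9 arrays, so its distance is not one of raw signal.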

How the results depend on the processing

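Between ages, the count of passing genes was 0 in the 3 comparisons under every alternative run. Against 1 month, where the main count was 5 at 6, 16 and 24 months, the deposited scores gave 2 at 6 months (14.1% of all tested probes), leaving out saturated spots gave 3 at each age (12.2%, 17.9% and 24.8%), and the haemoglobin covariate gave 0 at 6 months (0.224%). Median centring after normexp gave 3 at 16 months (44.5%) and 8 at 24 months (70.9%), and fitting only the ages compared gave 1 at 6 months (3.02%) and 0 at 24 months (0.0%). Leaving out 1 array gave 0 to 5 genes at 6 months (0 without 6 months replicate 2, 2 without replicate 3, 3 without replicate 1, where 0.756%, 6.74% and 4.45% of all probes passed), 3 to 6 at 16 months (3 without 16 months replicate 2, 3.31% of all) and 3 to 5 at 24 months (3 without 24 months replicate 1, 9.36% of all). The share of all probes was below the main 12.4%, 18.0% and 24.9% in each of these 5 cases. With the replicate block, which rests on numbers that do not pair the arrays, the counts were 4, 6 and 5 (6.47%, 13.5% and 19.9% of all probes), and 0 in each comparison between ages.

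Directions of values past the threshold turned only under normexp with median centring: the second Cd8a probe to -0.50, -0.43 and -1.02 at 6, 16 and 24 months, Cd2 to -0.023 at 24 months, Cd24a to -0.36 at 6 and at 16 months, and the unsaturated Thy1 probe to -0.37 at 6 months. Of values not past the threshold, 21 of 360 against 1 month and 59 of 735 between ages changed sign under an alternative. The cause was not tested. Cd4 minus Cd8a under median centring was 0.41 for 24 against 6 months, -0.0029 for 16 against 6 months and 0.41 for 24 against 16 months, and Cd69 minus Cd24a was 0.089 for 24 against 6 months. Leaving out 1 array gave -0.13 to 0.19, 0.0024 to 0.32 and -0.27 to -0.01 for Cd4 minus Cd8a at 24 against 6, 16 against 6 and 24 against 16 months, -0.22 to 0.030, -0.29 to -0.055 and -0.078 to 0.22 for Cd69 minus Cd24a, and -0.076 to 0.48 for Cd8b1 minus Cd8a at 24 against 6 months, which rests on a spot saturated in Cy5.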
